A study of Mus musculus with 6 samples.

Results

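The proteasome genes of mouse microglia were described here in wild-type animals and in animals without Lyl1. The genes were taken by symbol: Psma, Psmb, Psmc, Psmd, Psme, Psmf or Psmg followed by a digit, with pseudogene symbols left out. This rule found 50 of the 48587 genes in the count table, and 48 of them had enough reads to be tested. Microglia, the resident macrophages of the brain, had been sorted by FACS from C57BL/6 mice at postnatal day 42, about 1000 cells per sample. There were 3 samples labelled wildtype and 3 labelled Lyl1 KO. The labels give neither the allele that removes Lyl1, nor the sorting gate, nor whether the samples came from separate animals, so that every p-value below measures only the spread between these samples. Lyl1 encodes a transcription factor active in blood cell development, and the series asks what its loss does to microglia.

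The proteasome is the barrel-shaped protease that degrades proteins tagged with ubiquitin. Its 20S core stacks rings of alpha subunits (Psma genes), which gate the barrel, on rings of beta subunits (Psmb genes), some of which carry the catalytic sites. The 19S regulatory particle, built from ATPases (Psmc genes) and non-ATPases (Psmd genes), recognises, unfolds and feeds in the substrates. In immune cells, and after interferon gamma, the catalytic subunits encoded by Psmb5, Psmb6 and Psmb7 are exchanged for those encoded by Psmb8, Psmb9 and Psmb10. The resulting immunoproteasome favours peptides that fit MHC class I molecules, and the PA28 activator of Psme1 and Psme2 is induced with it.

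The libraries held 12753945 to 27378614 reads on genes, with 12827 to 15652 genes detected. Lyl1 itself had 683, 1399 and 839 reads in wild-type samples 1 to 3 and 205, 237 and 410 in knockout samples 1 to 3, which is lower in every knockout sample without being absent. The 8 microglia markers were detected in all 6 libraries and summed to 51200 to 54760 CPM in the wild-type and 47190 to 51530 in the knockout libraries. CPM here are read counts divided by the TMM-scaled library total, so that libraries of different depth can be compared. On this scale Lyl1 lay between 40.02 and 60.21 for wild type and between 9.026 and 14.26 for the knockouts, without overlap. Its fitted log2 fold change was -2.14 (edgeR, adjusted p = 0.9999), so that the test did not call Lyl1 either. Of the lists of other cell types, lymphocyte and NK cell genes, which would bring immunoproteasome RNA of their own, summed to at most 1.38 CPM, with Cd3e, Cd3g, Cd2, Nkg7 and Klrb1c at 0 in all libraries. Monocyte and neutrophil genes summed to 0.203 to 6.91 CPM and neuronal genes to 0 to 7.62. The border-associated macrophage list summed to 95.5, 0.318 and 25.6 CPM across the wild-type libraries and 3.52, 0.407 and 10.2 across the knockouts, and the red cell list to 227 and 65.2 in knockout samples 1 and 2 and to at most 1.23 in the rest. Astrocyte genes summed to 170 to 410 CPM, nearly all of it Slc1a3, while Gfap and Aldh1l1 were at 0. Oligodendrocyte genes summed to 47.4 to 379 CPM and endothelial genes to 27.2 to 179.7, with Cldn5 at 0. The part of these levels in the results below was not tested.

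More proteasome genes were near 0 in wild-type samples 1 and 2 than in the other 4 libraries. Among the 47 tested proteasome genes that reached 20 CPM in some library, 5 lay under 1 CPM in wild-type sample 1 and 4 in wild-type sample 2, against 0, 0, 1 and 0 in wild-type sample 3 and knockout samples 1 to 3. For all genes that reached 20 CPM in some library the corresponding shares were 23.6% and 23.8% in wild-type samples 1 and 2, 2.57% in wild-type sample 3, and 11.8%, 11.3% and 1.98% in knockout samples 1 to 3. Across the 48 tested proteasome genes, the correlation of log2 levels was 0.510 to 0.558 for wild-type sample 1 with the 5 other libraries and 0.620 to 0.682 for wild-type sample 2 with the other 4. Among wild-type sample 3 and the knockout samples it was 0.697 to 0.905. These points are genes that share libraries, and the r values are descriptive.

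By the fit, most proteasome genes were somewhat lower in knockout microglia, and no single gene passed the test. All 50 genes together summed to 5925, 6843 and 4832 CPM in wild-type samples 1 to 3 and to 4591, 4483 and 4783 CPM in knockout samples 1 to 3. The genotypes did not overlap in this sum, but wild-type sample 3 was close to the highest knockout sample. Of the 48 tested genes 33 had a fitted log2 fold change below 0 and 15 above it, 68.8% lower, where 51.3% of all 10394 tested genes and 56.5% of those at 20 CPM or more were lower. The median log2 fold change, knockout over wild type, was -0.38 for the proteasome genes, -0.03 for all tested genes and -0.14 for those at 20 CPM or more. Counted per library, 27, 13 and 27 of the 48 genes lay below their wild-type mean log2 level in wild-type samples 1 to 3. In knockout samples 1 to 3 the counts were 28, 32 and 27. By this count wild-type samples 1 and 3 were close to knockout samples 1 and 3, and wild-type sample 2 stood apart. In bulk RNA, a lower level per cell and a smaller share of cells that express a gene cannot be told apart.

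The edgeR quasi-likelihood test with Benjamini-Hochberg adjustment over all tested genes called 0 of the 48 proteasome genes higher and 0 lower at an adjusted p under 0.05, as it did for 0% of all genes in either direction. The common biological coefficient of variation of this fit was 1.271. Lyl1 itself was among the genes not called, so the lack of calls does not show that proteasome genes were unchanged. DESeq2 and limma-voom also called 0 of the 48, with 4 and 3 genes at an unadjusted p under 0.05, against 6.02% and 6.38% of all genes by these tools. At an unadjusted p under 0.05, edgeR had 1 higher gene, Psmd3, against a background of 1.16%, and 2 lower genes, Psma6 and Psmb1, against 1.67%, or 3 of 48 in either direction against 2.84%. The genotypes did not overlap for 2 higher genes, Psma7 and Psmd3, against a background of 5.97%. They did not overlap for 5 lower genes, Psmb1, Psmb8, Psmb9, Psme1 and Psme2, against a background of 5.19%. These counts moved with single libraries. Without wild-type sample 3, 9 genes had an unadjusted p under 0.05 (background 10.5%), and 17 were lower and 6 higher without overlap (backgrounds 12.9% and 16.6%). Without knockout sample 2 there were 0 genes at an unadjusted p under 0.05, and without knockout sample 1 there was 1, Psmd3. Without wild-type sample 2, 4 of 49 genes were lower and 6 higher without overlap (backgrounds 9.12% and 10.2%), so that the lower genes no longer stood above their background.

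**Figure D1:**
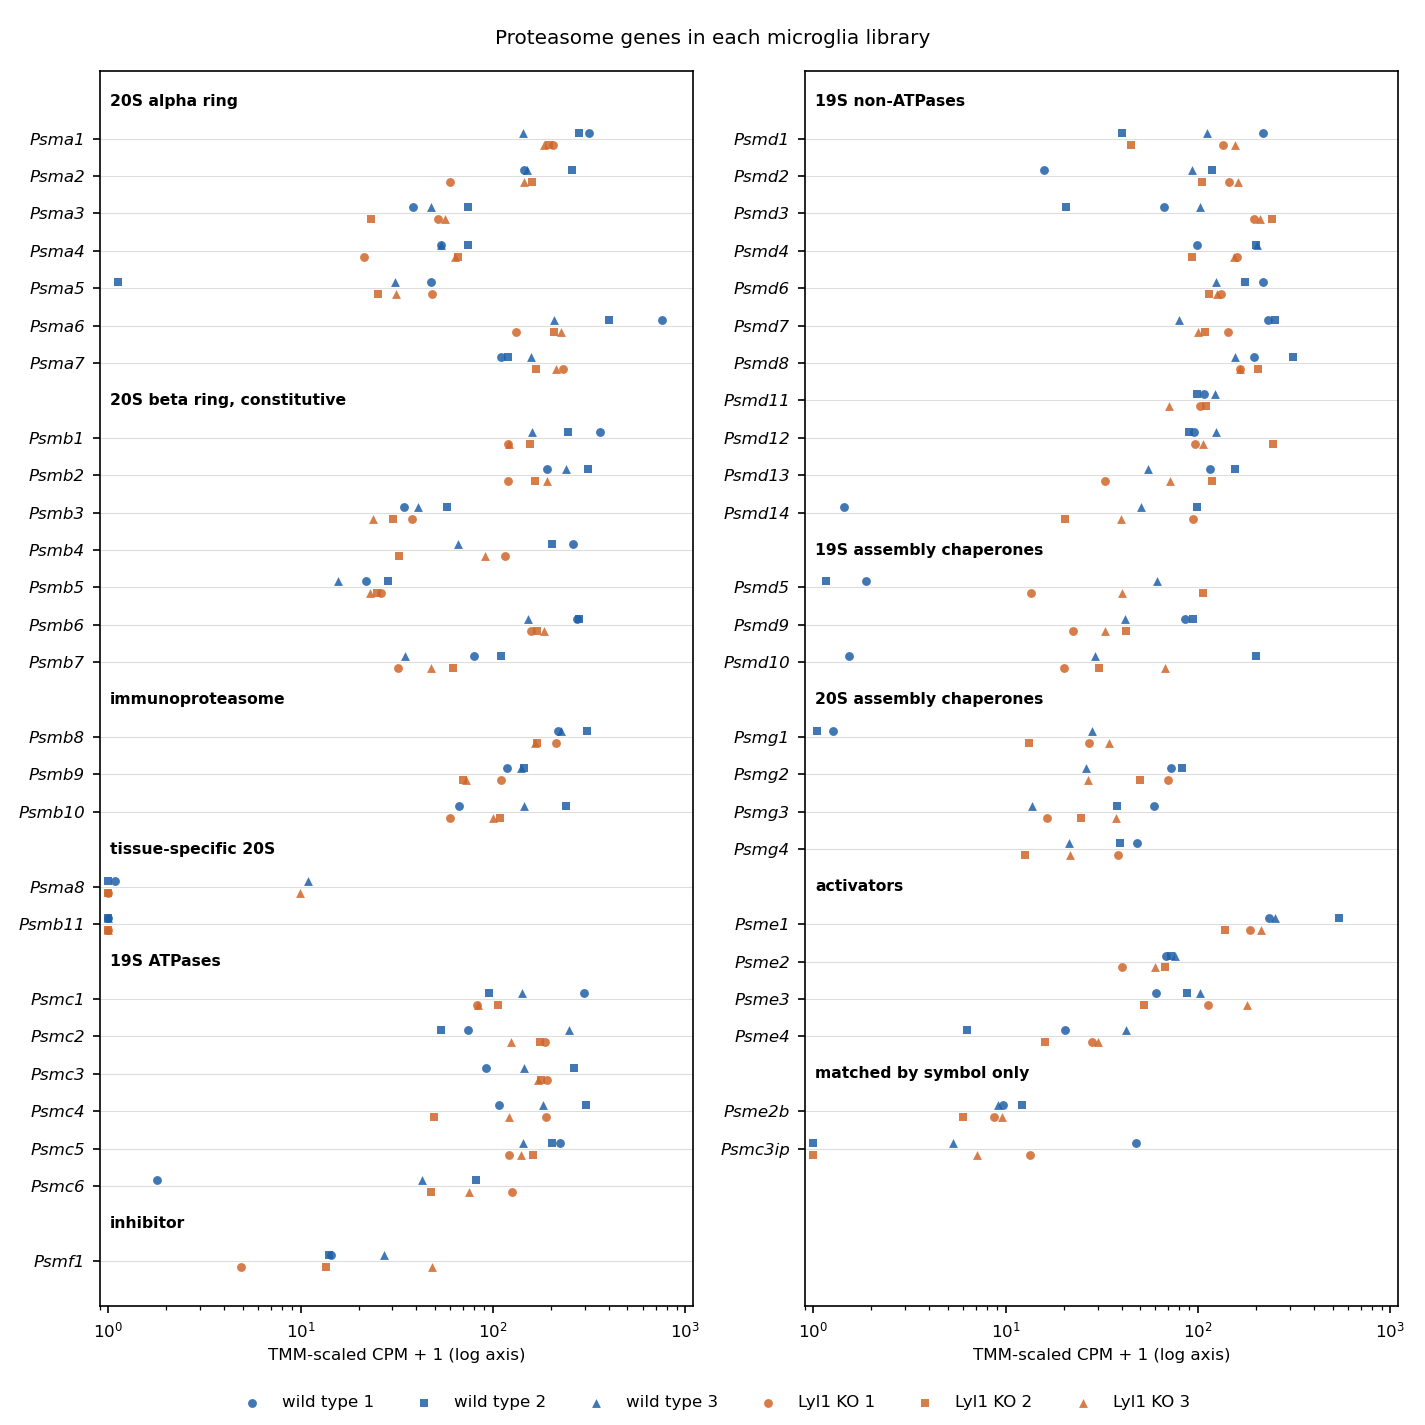
TMM-scaled CPM plus 1 on a log axis for each of the 50 proteasome genes, grouped by role, with 1 point per library (blue, wild type; orange, Lyl1 KO; circle, square and triangle for samples 1, 2 and 3). Psmd3 and Psma7 lie higher in all 3 knockout libraries, Psmb1, Psmb8, Psmb9, Psme1 and Psme2 lower, and the points at the left edge are wild-type samples 1 and 2 for most of the genes concerned.

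**Figure D2:**
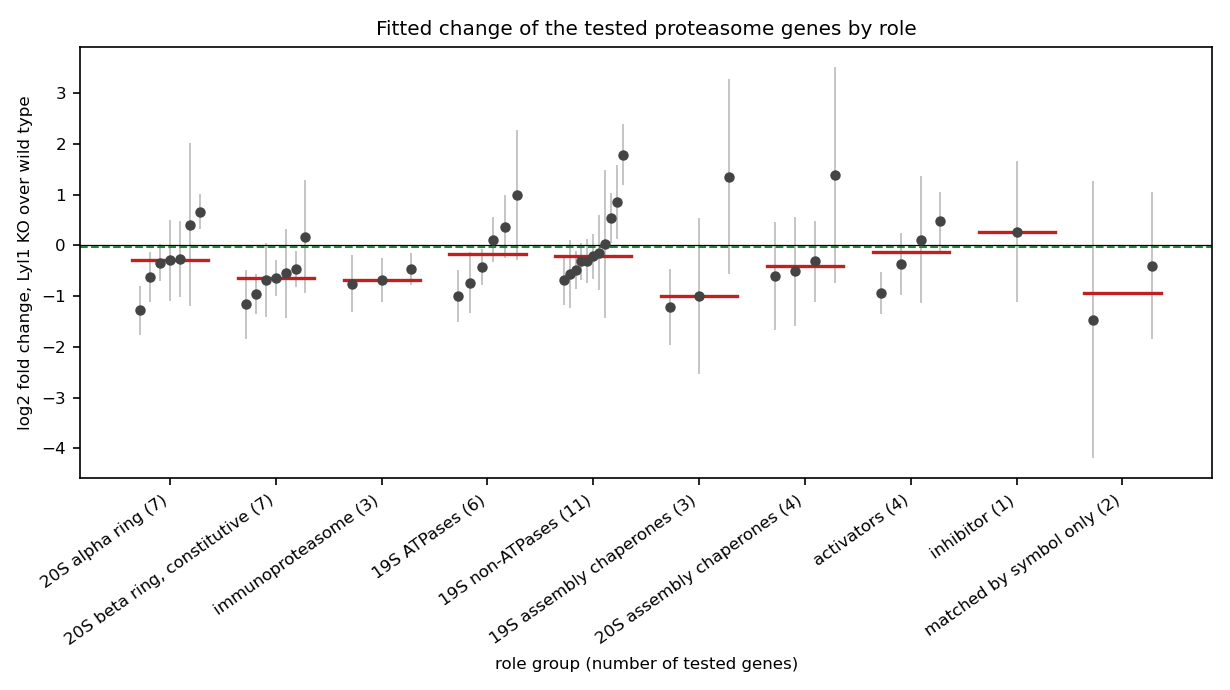
Fitted log2 fold change (Lyl1 KO over wild type) of the 48 tested proteasome genes by role, with bars of 1 standard error, red lines at the group medians and a dashed green line at -0.03, the median of all tested genes. The constitutive beta ring, with a median of -0.64, and the immunoproteasome, with -0.68, sit lower than the other subunit groups, and the 19S ATPases and non-ATPases have medians of -0.16 and -0.21.

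The alpha ring held Psma6, which was lower in knockout on average, and Psma7, which was higher. Its 7 genes encode the outer rings that control entry into the barrel. Of these, 5 were lower and 2 higher in knockout by the fit, the median log2 fold change being -0.29. Summed over the ring, the level was 1460, 1203 and 786 CPM in wild-type samples 1 to 3 and 743, 838 and 912 CPM in knockout samples 1 to 3. Wild-type sample 3 lay among the knockout samples. Psma6 (GRCm38 chromosome 12, 55384222 to 55418454, plus strand) was at 755, 401 and 207 CPM across the wild-type libraries and 130.0, 207.5 and 225 across the knockouts. Its wild-type mean of 455 ± 277 CPM (SD, n = 3) thus rested on samples 1 and 2, and the genotypes overlapped. The log2 fold change was -1.28 ± 0.48 (SE; edgeR, unadjusted p = 0.0304, adjusted p = 0.9999), and without wild-type sample 1 it was -0.69.

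Psma7 lay the other way from Psma6. It was at 109, 118 and 157 CPM across the wild-type libraries and 231, 167 and 213 across the knockouts, with no overlap, and the lowest knockout sample was close to the highest wild-type sample. The means were 128 ± 25.1 and 203 ± 33.2 CPM (SD, n = 3 each), with a log2 fold change of 0.67 ± 0.35 (SE; edgeR, adjusted p = 0.9999). For it and the other 6 genes without overlap, a 2-sided exact permutation test gave p = 0.1, the smallest that 3 against 3 samples allow. Without any 1 sample, the log2 fold change of Psma7 stayed between 0.56 and 0.85. Psma1 was at 315, 279 and 143 CPM across the wild-type libraries and 205, 194 and 183 across the knockouts, so that its knockout libraries agreed closely while its wild-type libraries did not. Psma5 had 528, 3 and 624 reads across the wild-type libraries and 1074, 475 and 868 across the knockouts, which makes wild-type sample 2 the single low library. Psma2, Psma3 and Psma4 had overlapping ranges, and for Psma2 and Psma4 the lowest library was knockout sample 1, at 58.7 and 20.5 CPM.

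The constitutive beta ring was lower in knockout as a sum. Its 7 genes summed to 1213, 1228 and 701 CPM in wild-type samples 1 to 3 and to 602, 634 and 675 CPM in knockout samples 1 to 3. The genotypes did not overlap, but wild-type sample 3 was nearer to the knockout samples than to the other wild-type samples. By the fit 6 of the 7 genes were lower, the median log2 fold change being -0.64. Psmb1, a structural beta subunit (chromosome 17, 15475021 to 15499751, minus strand), was at 359, 245 and 159 CPM across the wild-type libraries and 119, 156 and 120.05 across the knockouts. The means were 254 ± 100.1 and 132 ± 20.9 CPM (SD, n = 3 each), 1.93-fold lower in knockout. By the fit its log2 fold change was -0.95 ± 0.39 (SE; edgeR, unadjusted p = 0.0424, adjusted p = 0.9999). It was -0.61 without wild-type sample 1 and -0.95 without wild-type sample 2.

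Psmb2, another structural subunit, was at 189, 310.1 and 239 CPM across the wild-type libraries and 118, 165 and 191 across the knockouts. The ranges overlapped only between wild-type sample 1 and knockout sample 3, and the log2 fold change was -0.64 ± 0.35 (SE; edgeR, adjusted p = 0.9999), which was -0.41 without wild-type sample 2. Psmb4 was at 260.1, 201 and 64.6 CPM across the wild-type libraries and 115, 31.4 and 89.9 across the knockouts, with wild-type samples 1 and 2 above all others. Psmb3 was at 33.5, 56.6 and 39.5 CPM across the wild-type libraries and 36.8, 29.2 and 22.8 across the knockouts. The subunits with catalytic sites, Psmb5, Psmb6 and Psmb7, are described with their inducible counterparts.

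**Figure D3:**
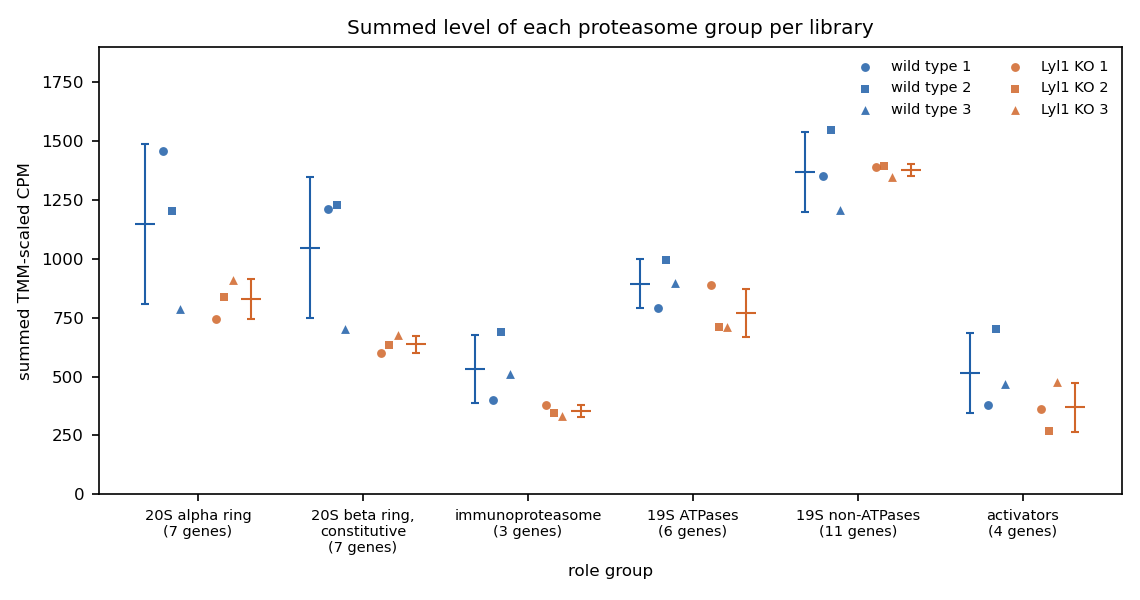
Summed TMM-scaled CPM of 6 proteasome groups in each library (blue, wild type; orange, Lyl1 KO; symbols mark samples 1 to 3), with the mean and SD of 3 samples beside the points. The constitutive beta ring and the immunoproteasome do not overlap between genotypes, while the 19S non-ATPases have means of 1369 and 1378 CPM.

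All 3 immunoproteasome genes were read in every library, and all 3 were lower in knockout by the fit. Their sum was 399.5, 689 and 509.8 CPM in wild-type samples 1 to 3 and 381, 345 and 334 CPM in knockout samples 1 to 3, without overlap. The median log2 fold change was -0.68, and it ran from -0.76 to -0.26 over all 13 alternative settings. Psmb8 encodes the inducible chymotrypsin-like subunit (chromosome 17, 34197721 to 34201454, plus strand). It was at 216, 307 and 226 CPM across the wild-type libraries and 213, 168 and 164 across the knockouts. Knockout sample 1 lay just under wild-type sample 1, so the absence of overlap was by a narrow margin. The means were 249.9 ± 50.0 and 182 ± 26.9 CPM (SD, n = 3 each), and the log2 fold change was -0.46 ± 0.31 (SE; edgeR, unadjusted p = 0.178, adjusted p = 0.9999). Without wild-type sample 2 it was -0.26.

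Psmb9, the inducible caspase-like-site replacement in the same MHC region (chromosome 17, 34181987 to 34187764, minus strand), was at 117, 144 and 139.6 CPM across the wild-type libraries and 109, 69.1 and 71.05 across the knockouts. Here too knockout sample 1 was the highest knockout library and the genotypes did not overlap. The means were 134 ± 14.3 and 83.2 ± 22.7 CPM (SD, n = 3 each), 1.61-fold lower in knockout. The log2 fold change was -0.68 ± 0.44 (SE; edgeR, unadjusted p = 0.157, adjusted p = 0.9999), and it ran from -0.93 to -0.55 without any 1 sample. Psmb10, which replaces the trypsin-like subunit (chromosome 8, 105935735 to 105938444, minus strand), varied most of the 3. It was at 65.8, 237 and 144 CPM across the wild-type libraries and 58.9, 108 and 99.05 across the knockouts, and wild-type sample 1 lay within the knockout range. Its log2 fold change of -0.75 ± 0.57 (SE; edgeR, adjusted p = 0.9999) became -0.23 without wild-type sample 2 and -1.10 without wild-type sample 1.

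The constitutive catalytic genes did not lie on 1 side. Psmb5, the chymotrypsin-like subunit (chromosome 14, 54614119 to 54618022, minus strand), was at 20.8, 27.4 and 14.7 CPM across the wild-type libraries and 25.2, 23.9 and 21.9 across the knockouts. All knockout samples lay inside the wild-type range, with a log2 fold change of 0.18 ± 1.12 (SE; edgeR, adjusted p = 0.9999) that was 0.44 without wild-type sample 2 and -0.018 without wild-type sample 3. Psmb6 was at 272, 279 and 150.3 CPM across the wild-type libraries and 156, 168 and 182 across the knockouts, with wild-type sample 3 the lowest library of all. Its log2 fold change was -0.47 ± 0.35 (SE; edgeR, adjusted p = 0.9999), and -0.30 without wild-type sample 2. Psmb7 was at 78.5, 109 and 34.0 CPM across the wild-type libraries and 31.2, 60.6 and 46.9 across the knockouts, with a log2 fold change of -0.67 ± 0.73 (SE; edgeR, adjusted p = 0.9999). Without wild-type sample 2 it was -0.25 and without wild-type sample 3 it was -1.01.

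Setting each inducible gene against the subunit it replaces gives a value that does not depend on the scaling between libraries, apart from the added 1. The log2 ratio of Psmb8 to Psmb5, computed on CPM plus 1, was 3.32, 3.44 and 3.85 in wild type and 3.03, 2.76 and 2.85 in knockout, without overlap. The means were 3.54 ± 0.28 and 2.88 ± 0.14 (SD, n = 3 each), a difference of -0.66 in log2 ratio, and -0.77 to -0.50 without any 1 sample. For Psmb9 to Psmb6 the log2 ratios were -1.21, -0.95 and -0.11 in wild type and -0.51, -1.27 and -1.35 in knockout, which overlap. Those of Psmb10 to Psmb7 ran from -0.25 to 2.05 in wild type and from 0.82 to 1.06 in knockout, with a difference of means of -0.05. The lower ratio in knockout was thus seen without overlap for the Psmb8 and Psmb5 pair alone of the 3. How often ratios of other gene pairs separate the genotypes was not counted, and the differences between the 3 pairs were not tested. Psmb5 had 236 to 690 reads per library, and its count is uncertain for the reason given below.

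Levels of different genes can be compared only per length, here as CPM per kb of the principal transcript. On that scale Psmb8 exceeded Psmb5 in all 6 libraries, by 3.87 to 8.49 times. Psmb9 stayed below Psmb6 in all 6, at 0.230 to 0.548 times its level, and Psmb10 exceeded Psmb7 in 5 of 6, wild-type sample 1 being the exception. The Psmb5 count is uncertain, because 57.1% of the 50-base windows of its transcript also occur in another gene, chiefly Gm3375, and the handling of reads with several matches is not given in the sources used here. With the length counted over unshared windows alone, the mean Psmb8 to Psmb5 ratio was 2.45 instead of 5.52 and still above 1 in all 6 libraries. On the opposite strand, Psmb8 shares 498 exon bases with Gm20496, Psmb9 shares 212 with Tap1 and Psmb7 shares 405 with Nek6. Reads from these stretches cannot be assigned, since the library kit keeps no strand information.

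**Figure D4:**
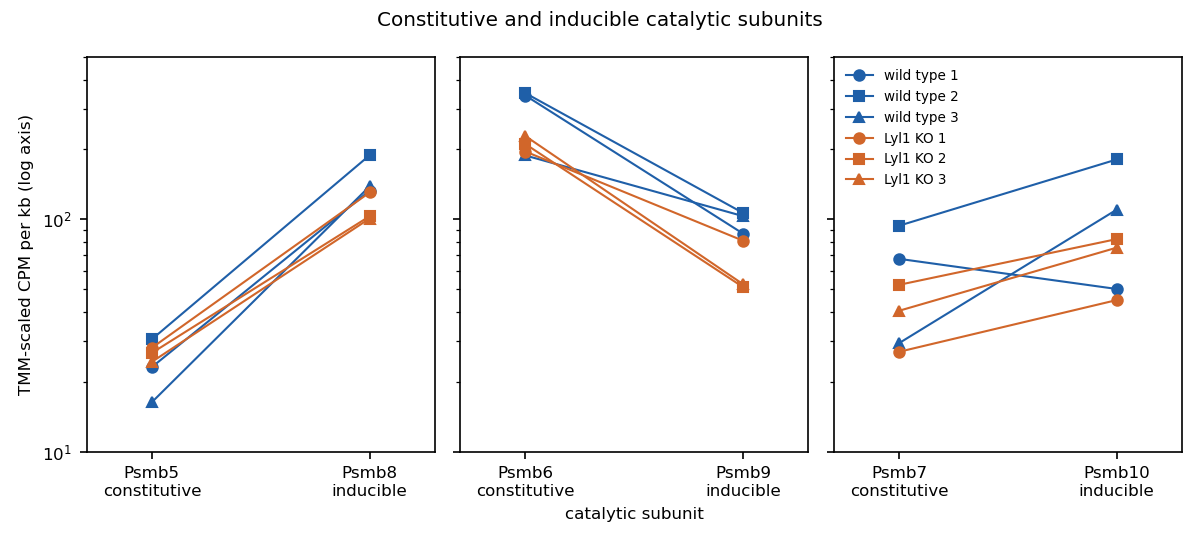
TMM-scaled CPM per kb of the principal transcript (log axis) of each constitutive catalytic subunit and the inducible subunit that replaces it, with 1 line per library (blue, wild type; orange, Lyl1 KO; symbols mark samples 1 to 3). Psmb8 lies above Psmb5 and Psmb9 below Psmb6 in all 6 libraries, and Psmb10 lies above Psmb7 in 5.

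The 250 bases before the annotated start of the inducible genes and of Psmb5 are shown because this is the group in which inducible and constitutive genes can be set side by side. They come from RefSeq (GRCm38.p6), at chr17:34197945-34198194 (plus strand) for Psmb8, chr17:34187331-34187580 (minus) for Psmb9, chr8:105938393-105938642 (minus) for Psmb10 and chr14:54617996-54618245 (minus) for Psmb5. The starts lie inside the gene spans given above, which reach to the outermost GENCODE start. Capitals mark matches, on either strand, to TGANNNNGC, the core of the antioxidant response element, to CCAAT, the NF-Y box, to a pair of GAAA blocks 2 bases apart, the core of the interferon-stimulated response element, and to TTCNNNGAA, the gamma-activated site.
Psmb8: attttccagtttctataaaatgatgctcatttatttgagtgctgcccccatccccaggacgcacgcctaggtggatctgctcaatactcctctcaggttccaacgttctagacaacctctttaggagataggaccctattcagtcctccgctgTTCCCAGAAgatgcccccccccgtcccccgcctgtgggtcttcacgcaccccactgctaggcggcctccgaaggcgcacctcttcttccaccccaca
Psmb9: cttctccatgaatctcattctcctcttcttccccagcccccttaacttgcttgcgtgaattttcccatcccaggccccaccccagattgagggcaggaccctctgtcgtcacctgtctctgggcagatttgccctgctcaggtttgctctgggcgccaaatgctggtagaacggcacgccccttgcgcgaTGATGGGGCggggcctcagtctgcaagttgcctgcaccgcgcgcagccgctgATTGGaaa
Psmb10: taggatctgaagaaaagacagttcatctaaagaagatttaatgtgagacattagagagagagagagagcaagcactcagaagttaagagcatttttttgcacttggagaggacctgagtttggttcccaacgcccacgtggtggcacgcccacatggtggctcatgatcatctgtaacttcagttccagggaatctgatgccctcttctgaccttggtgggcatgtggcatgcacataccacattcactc
Psmb5: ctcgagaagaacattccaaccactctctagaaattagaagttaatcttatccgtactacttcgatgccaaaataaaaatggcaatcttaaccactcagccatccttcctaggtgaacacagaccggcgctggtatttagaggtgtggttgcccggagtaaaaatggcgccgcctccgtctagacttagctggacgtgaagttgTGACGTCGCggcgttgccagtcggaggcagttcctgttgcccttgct
Psmb8 holds TTCCCAGAA, a TTCNNNGAA match that begins at -97 from the start, a motif found in 7.02% of all 32851 promoters of the table. Psmb5 holds TGACGTCGC at -47, and Psmb9 holds TGATGGGGC at -60 and an NF-Y box at -8. Of the other constitutive catalytic genes, Psmb6, which is not shown, holds TGACGGAGC at -9, and Psmb7 has no promoter in the table. Matches to TGANNNNGC stand in 35.2% and to CCAAT in 33.8% of all promoters, so they are common by letter alone. The Psmb10 window holds none of the 4 letter patterns, which says only that these letters are not in this window.

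The 19S ATPases, the motor ring that unfolds substrates, did not lie on 1 side. Of the 6 genes 3 were lower and 3 higher, and their sum was 792, 997 and 897 CPM in wild type and 889, 712 and 709.5 CPM in knockout. Psmc3, an ATPase of this ring, was at 91.4, 263 and 143 CPM across the wild-type libraries and 189.6, 177 and 171 across the knockouts. The knockout libraries lay between the extremes of wild type, with a log2 fold change of 0.11 ± 0.44 (SE; edgeR, adjusted p = 0.9999) that became -0.17 without wild-type sample 1 and 0.63 without wild-type sample 2. Psmc1 was at 297, 94.9 and 141 CPM across the wild-type libraries and 81.3, 105 and 82.7 across the knockouts. Psmc2 was at 73.4, 52.6 and 248 CPM across the wild-type libraries and 185, 175 and 123 across the knockouts. Psmc4 ranged from 107 to 305 CPM in wild type and from 48.4 to 187 in knockout, and Psmc5 from 142 to 222 and from 121 to 159.6. All 4 overlapped between the genotypes. Psmc6 had 9 reads in wild-type sample 1 and 872 to 2832 in the other 5 libraries.

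The 19S non-ATPases summed to almost the same level in both genotypes, 1369 ± 170.4 CPM for the wild-type and 1378 ± 24.9 CPM for the knockout libraries (SD, n = 3 each), although 7 of the 11 genes were lower by the fit. Psmd3, a scaffold subunit of the 19S lid (chromosome 11, 98682554 to 98695979, plus strand), was the member with the largest fitted log2 fold change. It was at 65.8, 19.7 and 102 CPM across the wild-type libraries and 195, 242 and 209 across the knockouts. The lowest knockout library was well above the highest wild-type library. The means were 62.3 ± 41.0 and 215 ± 24.2 CPM (SD, n = 3 each), 3.45-fold higher in knockout. The log2 fold change was 1.79 ± 0.60 (SE; edgeR, unadjusted p = 0.0189, adjusted p = 0.9999), and it stayed between 1.39 and 2.35 without any 1 sample. Psmd3 shares only 17 exon bases with another gene model, on the opposite strand, and none of its 50-base windows.

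Psmd2, the large non-ATPase subunit at the base, was at 14.8, 118 and 92.2 CPM across the wild-type libraries and 144, 103 and 161 across the knockouts, with wild-type sample 1 the low library. Psmd8, a lid subunit, was at 195, 309.9 and 155 CPM across the wild-type libraries and 164, 205 and 164 across the knockouts. By the fit its log2 fold change was -0.31 ± 0.37 (SE; edgeR, adjusted p = 0.9999), and 0.045 without wild-type sample 2. Psmd14, the deubiquitinase that removes ubiquitin chains before entry, had 5 reads in wild-type sample 1 and 378 to 2466 in the others. Psmd4, a ubiquitin receptor, was at 98.3, 198 and 201 CPM across the wild-type libraries and 159, 92.2 and 152.5 across the knockouts. Psmd12 was at 94.5, 88.3 and 123 CPM across the wild-type libraries and 94.9, 244 and 106 across the knockouts, where sample 2 was the high library. Psmd1, Psmd6, Psmd7, Psmd11 and Psmd13 also overlapped. Of these Psmd6 was among the steadiest in knockout, at 129.98, 113 and 125 CPM, beside 216, 175 and 123 in wild type.

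Assembly chaperones, which build the particles and are not part of the finished proteasome, differed widely between libraries. Psmd5, a chaperone of the 19S base, had 10, 4 and 1258 reads across the wild-type libraries and 284, 2056 and 1130 across the knockouts. Psmg1, which helps to form the alpha ring, had 3, 1 and 570 reads across the wild-type libraries and 596, 241 and 967 across the knockouts. In both genes the low libraries were wild-type samples 1 and 2, and wild-type sample 3 was within the knockout range. Psmd10, another base chaperone, had 6, 5039 and 593 reads across the wild-type libraries and 433, 583 and 1915 across the knockouts, so that the extremes of all libraries were a pair of wild-type samples. Its log2 fold change of -0.99 ± 1.54 (SE; edgeR, adjusted p = 0.9999) turned to 1.43 without wild-type sample 2. Psmd9 was at 84.6, 92.9 and 40.6 CPM across the wild-type libraries and 21.4, 41.2 and 31.9 across the knockouts. Psmg2 was at 71.6, 82.0 and 25.0 CPM across the wild-type libraries and 68.6, 49.2 and 25.6 across the knockouts, with a log2 fold change of -0.32 ± 0.80 (SE; edgeR, adjusted p = 0.9999), which was 0.017 without wild-type sample 2. Psmg3 and Psmg4 had overlapping ranges, from 12.6 to 57.9 and from 11.6 to 47.1 CPM over the 6 libraries.

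The PA28 activator genes lay lower in knockout, and Psme3 and Psme4 lay higher by the fit with overlapping ranges. Psme1 (chromosome 14, 55578123 to 55581529, plus strand) was at 232, 541 and 250.5 CPM across the wild-type libraries and 185, 137 and 211 across the knockouts. The genotypes did not overlap, and wild-type sample 2 was far above the rest. The means were 341 ± 173 and 178 ± 37.4 CPM (SD, n = 3 each), with a log2 fold change of -0.94 ± 0.41 (SE; edgeR, unadjusted p = 0.0518, adjusted p = 0.9999). Without wild-type sample 2 the log2 fold change was -0.42. Its partner Psme2 (chromosome 14, 55587441 to 55591113, minus strand) was at 66.8, 71.7 and 74.6 CPM across the wild-type libraries and 39.5, 66.6 and 58.5 across the knockouts. Knockout sample 2 was only just under wild-type sample 1, and the log2 fold change was -0.37 ± 0.61 (SE; edgeR, adjusted p = 0.9999), which was -0.19 without knockout sample 1. Psme2 shares 59.3% of its 50-base windows with other genes, chiefly Psme2b, so its count is uncertain.

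Psme3, the nuclear PA28 gamma activator, which is not a partner of the other PA28 genes, was at 59.2, 86.1 and 101 CPM across the wild-type libraries and 111, 51.3 and 179 across the knockouts. Its log2 fold change was 0.47 ± 0.59 (SE; edgeR, adjusted p = 0.9999), and -0.016 without knockout sample 3. Psme4, the PA200 activator, was at 19.4, 5.28 and 41.0 CPM across the wild-type libraries and 27.0, 14.9 and 29.1 across the knockouts. Psmf1, an inhibitor of the 20S core in the test tube, was at 13.4, 13.1 and 26.0 CPM across the wild-type libraries and 3.92, 12.6 and 47.1 across the knockouts, where samples 1 and 3 were the lowest and highest of all libraries. Its log2 fold change of 0.27 ± 1.39 (SE; edgeR, adjusted p = 0.9999) was -1.09 without knockout sample 3.

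The remaining symbols were rare or are not known as subunits. Psma8, the alpha subunit of the testis, had 1, 0 and 209 reads across the wild-type libraries and 0, 0 and 255 across the knockouts, so that nearly all its reads were in sample 3 of each genotype. Psmb11, the beta subunit of the thymus, had 0 reads in all 6 libraries. Such a 0 leaves room for 3 reads per library, or 0.104 to 0.2645 CPM, for counting error only. Psmc3ip, a recombination factor named after its binding to Psmc3, had 527, 0 and 90 reads across the wild-type libraries and 280, 0 and 174 across the knockouts (log2 fold change -1.46 with a standard error of 2.73; edgeR, adjusted p = 0.9999). Without wild-type sample 1 its sign turned, at 1.53. Psme2b, a near copy of Psme2, stayed between 4.98 and 11.2 CPM.

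Proteasome genes had unequal RNA levels per length, also those whose products stand in fixed proportion in the particle. Over the 6 libraries, Psma6 averaged 308 CPM per kb, Psmb6 252, Psmb2 235, the activator gene Psme1 233 and Psma1 183. The ranges of these 5 overlapped, from 125 to 724 for Psma6 and from 188 to 349 for Psmb6, so their order is not fixed by these samples. At the low end of the core, by principal transcript length, stood Psma3 at 16.7, Psma5 at 23.9 and Psmb5 at 24.8 CPM per kb. Within the alpha ring the highest mean was 18.4 times the lowest and within the constitutive beta ring 10.2 times. Across the immunoproteasome genes it was 1.65 times, with Psmb8 at 132.5, Psmb10 at 90.7 and Psmb9 at 80.2 CPM per kb. That ratio spans 3 genes where each ring has 7, so the ratios are not like for like. Per kb of all annotated exons joined, Psmb10 was at 69.7, Psmb8 at 63.8 and Psmb9 at 29.6, so the order of Psmb8 and Psmb10 depends on the length used. The ratios of highest to lowest mean likewise hold for the principal transcript length. Per kb of joined exons Psma3 was still lowest in the core, at 12.2. Psmb3 at 15.8 and Psmb7 at 17.5 then lay below Psma5 at 22.5 and Psmb5 at 24.8, so the low end depends on the length too. Of the low genes, Psma5, Psmb5 and Psmb3 share over 50% of their 50-base windows with other genes (55.4%, 57.1% and 55.8%). Psma3 shares 22.0% and Psmb7 28.1%, and the part of this sharing in their levels was not tested.

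Each of 4 lists of genes around the proteasome held more genes that were higher than lower in knockout by the fit, some by a small margin. The shares lower were 25% for associated and assembly, 46.7% for ubiquitin, 37.5% for transcription factor and 46.2% for interferon gamma genes. Of all tested genes 51.3% were lower, so the ubiquitin and interferon gamma lists were near that share. None of the 44 tested genes of the 4 lists passed the edgeR test, against 0% of all genes. Of the 44, 1 gene, B2m, had an unadjusted p under 0.05, against 2.84% of all genes. Without overlap between the genotypes, 5.97% of all genes were higher and 5.19% lower. By that measure the associated and assembly list had 0 higher and 1 lower, the ubiquitin list 2 and 0, and the transcription factor list 1 and 0. Of 8 associated and assembly factors 6 were higher and 2 lower in knockout, the median log2 fold change being 0.63. Among them Shfm1, which encodes the small 19S subunit DSS1, was at 201, 123 and 89.1 CPM across the wild-type libraries and 61.2, 60.9 and 82.3 across the knockouts, lower without overlap (log2 fold change -1.02, standard error 0.50; edgeR, adjusted p = 0.9999). Without wild-type sample 1 its log2 fold change was -0.63. The ligase Ube3c and the deubiquitinase Usp14 had log2 fold changes of 1.68 and 1.03 with standard errors of 1.45 and 1.43, Usp14 with a single high library, knockout sample 2 at 234 CPM. Usp14 turned to -0.68 without that library, and Ube3c ran from 1.14 without wild-type sample 1 to 4.01 without wild-type sample 3. Of 15 ubiquitin and shuttle genes 8 were higher and 7 lower, with a median of 0.28. Ddi2, the protease that activates the proteasome regulator Nfe2l1, was at 29.3, 4.53 and 19.3 CPM across the wild-type libraries and 77.8, 69.7 and 43.8 across the knockouts. Uba1, the main ubiquitin-activating enzyme, was at 10.05, 0.238 and 60.0 CPM across the wild-type libraries and 184, 93.0 and 154 across the knockouts. Neither overlapped, with log2 fold changes of 1.85 and 2.61 and standard errors of 1.00 and 1.45 (edgeR, adjusted p = 0.9999 for both). The shuttle factor Ubqln4 overlapped, with a log2 fold change of 2.34 and a standard error of 1.78. Without wild-type sample 3 the log2 fold change was 4.82 for Uba1 and 4.33 for Ubqln4.

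Of 8 tested transcription factors that act on proteasome genes 5 were higher and 3 lower, with a median of 0.20. Stat3 was at 25.9, 32.5 and 142 CPM across the wild-type libraries and 256, 140.87 and 230.0 across the knockouts, overlapping by a narrow margin. Mafk, without overlap, was at 0.970, 10.8 and 8.16 CPM and at 59.4, 72.5 and 14.3. Nfyb ranged from 1.94 to 84.3 CPM in wild type and from 0.203 to 20.3 in knockout. Nfe2l1, the factor that restores proteasome gene expression when the proteasome is blocked, was at 88.1, 45.4 and 62.9 CPM across the wild-type libraries and 1.98, 269 and 91.1 across the knockouts, and was picked after its values had been seen. Of 13 tested genes of interferon gamma signalling and class I peptide supply 7 were higher and 6 lower, with a median of 0.02. B2m, the light chain of MHC class I, was at 3780, 2813 and 2585 CPM across the wild-type libraries and 2171, 2260 and 2197 across the knockouts, with a log2 fold change of -0.47 ± 0.17 (SE; edgeR, unadjusted p = 0.0249, adjusted p = 0.9999). Without wild-type sample 1, its highest library, B2m was at -0.28. The peptide-loading factor Tapbp was also lower without overlap, at 743 ± 158 and 536 ± 53.4 CPM (SD, n = 3 each). The receptor chain Ifngr2 was higher without overlap, at 292 ± 11.1 and 426 ± 84.7 CPM (SD, n = 3 each).

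Tap1, the peptide transporter gene that overlaps Psmb9 on the opposite strand, was likewise picked after its values had been seen, as was Erap1, which trims peptides for class I. Tap1 was at 0.970, 15.3 and 57.1 CPM across the wild-type libraries and 82.2, 129 and 109.9 across the knockouts, which is higher without overlap while Psmb9 was lower. Erap1 was lower without overlap, at 52.5 to 181 CPM in wild type and 0.528 to 39.1 in knockout. In that list 2 genes were thus higher and 3 lower without overlap, against backgrounds of 5.97% and 5.19%. The interferon factor Irf1 overlapped between the genotypes, at 36.6 to 165 CPM for the wild-type and 61.6 to 99.5 for the knockout libraries. Nlrc5, an activator of MHC class I genes, had reads in knockout sample 3 at 12.9 CPM and was at or near 0 in the other 5 libraries.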

How the data were processed

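RNA of about 1000 sorted microglia per sample was made into cDNA with a SMARTer kit, amplified by PCR without molecular identifiers and sequenced as Nextera XT libraries in single reads of 50 cycles, per the labels' protocols. The deposited values are raw counts per gene symbol. The submitters' processing notes name STAR 2.5.2b, Subread, featureCounts 1.5.1, limma 3.28.21, CASAVA 1.8.2 and build GRCm38 with no roles. Annotation, strand setting and multiple-match handling: not given in the sources used here.

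All 92 ERCC entries were left out. Genes were kept by edgeR 4.0.16 filterByExpr (minimum count 10, minimum total 15), leaving 10394, scaled by TMM and compared by genotype alone with the quasi-likelihood F test, 2-sided, Benjamini-Hochberg adjusted (R 4.3.3). The fit was also run on simulated counts, and the outcome is not given here, so no statement on power rests on it. The standard error is the log2 fold change divided by the square root of F. Alternatives were RLE and upper-quartile scaling, DESeq2 1.42.0, limma-voom (limma 3.58.1), no filter, a filter of 20 CPM, a replicate block and leaving out each sample. Lengths, overlaps and positions are from GENCODE M21 (GRCm38), where all 50 genes were found, and promoters from RefSeq, where 42 were. The genes and lists were chosen with earlier results of these data known. Fold changes were given for the catalytic and PA28 genes, genes with an unadjusted p under 0.05 or no overlap, the most abundant gene of each role, and up to 3 genes per pathway list with the smallest p.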

Additional observations from a re-analysis of the deposited data

Results flagged for a closer look

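The pseudogene Psmb6-ps2, left out by its symbol, had at most 6 reads in a sample, against the 3 that a count of 0 allows in a library. The ERCC spike-in entries, for which the labels name no spike-in, had at most 66 reads in a sample.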

How the results depend on the processing

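No proteasome gene was called under any of the 13 alternatives, while over all genes DESeq2 called 52 and edgeR without a filter called 8. The median log2 fold change of the proteasome genes, -0.38, stayed negative, from -0.55 to -0.24, with the lowest value without wild-type sample 3 and -0.55 to -0.25 over the fits that left out 1 sample. Relative to the median of all genes it was -0.58 to -0.27. Upper-quartile scaling moved the median of all genes by 0.12, and limma-voom by 0.23. With the replicate number as a block the proteasome median was -0.39 and 1 gene, Psmd3, had an unadjusted p under 0.05, against 1.65% of all genes in that fit. Same-numbered samples did not deviate together from their genotype means (r of 0.014, -0.003 and 0.033 across genes for samples 1 to 3). In log2 levels of the 48 tested proteasome genes, the highest r of all pairs was 0.905, between wild-type sample 3 and knockout sample 3. The same-numbered pairs of samples 1 and 2 had r of 0.523 and 0.649. Wild-type sample 2 correlated best with knockout sample 3, at 0.682. Signs turned for Psmd10 (0.38 with limma-voom, 1.19 with the block) and Psmf1 (-0.17 and -0.31). Over the fits without 1 sample the log2 fold changes ran from -1.65 to 1.43 for Psmd10, -1.09 to 0.76 for Psmf1, -0.17 to 0.63 for Psmc3, -2.48 to 1.53 for Psmc3ip, -0.50 to 0.045 for Psmd8, -0.68 to 0.017 for Psmg2, -0.018 to 0.44 for Psmb5, -0.016 to 0.84 for Psme3, -2.25 to 0.15 for Nfyb and -0.68 to 2.03 for Usp14; the cause was not tested. The difference in log2 ratio ran from -0.77 to -0.50 for Psmb8 to Psmb5, -0.56 to 0.03 for Psmb9 to Psmb6 and -0.66 to 0.49 for Psmb10 to Psmb7. With exon-union lengths, chosen after the data were seen, the mean Psmb8 to Psmb5 ratio per kb was 2.66 and that of Psmb10 to Psmb7 was 4.36, against 1.92 with principal transcripts. The shares of genes under 1 CPM were 23.6%, 23.8% and 2.57% in wild-type samples 1 to 3, with 12753945, 27378614 and 19632530 reads. They were 11.8%, 11.3% and 1.98% in knockout samples 1 to 3, with 22259533, 19205948 and 27305558 reads. The part of depth in these shares was not tested. Reads are not independent molecules, so floors cover counting error only.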

Other observations

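Within each bin of mean level, proteasome genes had a lower median coefficient of variation between wild-type libraries than all genes of the bin. The gap was small in the bin that held most of the proteasome genes. The bins are wide, so genes within a bin were not matched in level. At a mean of 100 to 500 CPM, 26 proteasome genes had a median coefficient of variation of 38.2% in wild type and 20.9% in knockout, where 1510 genes of that level had 40.95% and 27.15%. At 50 to 100 CPM the values for 9 proteasome genes were 47.2% and 48.4%, against 65.5% and 40.9% for 1847 genes, so the order turned in knockout. At 5 to 50 CPM they were 63.3% and 42.6% for 13 proteasome genes, against 103% and 75.8%. No test was made of these differences.

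The same 4 letter patterns were counted in the 45 promoters of the 42 proteasome genes found in the promoter table. TGANNNNGC stood in 40.0% of them against 35.2% of all promoters, CCAAT in 33.3% against 33.8%, the paired GAAA blocks in 6.67% against 2.98% and TTCNNNGAA in 4.44% against 7.02%. The genes with the paired GAAA blocks were Psmb3, Psmd4 and Psmd9, and those with TTCNNNGAA were Psmb8 and Psmg1. These are counts of letters in a window, given as a description.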
